A study of Homo sapiens with 12 samples.

Results

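The comparison asks where 2 related leukaemia lines answered the same drug differently. For each gene it is the change with decitabine in K562/ADR minus the change with decitabine in K562, on the log2 scale, so a positive difference means that the gene went further up, or less far down, in K562/ADR. No gene was chosen by its values: the comparison covers all 18417 genes with a name of their own and uses all 12 arrays of the series. K562, called KS here, is an established cell line derived from chronic myeloid leukaemia in blast crisis. K562/ADR, called KA, is the subline made multidrug-resistant with adriamycin (doxorubicin, an anthracycline), and it was kept in medium with 50 nM of that drug. The 4 groups were untreated KS, KS with 5 nM decitabine for 72 hours, untreated KA, and KA with the same dose and time of decitabine, each with 3 arrays of total RNA. The labels do not say what the untreated cells were given, whether adriamycin was present during treatment, or whether the replicates were grown separately. The p-values therefore speak for the spread among these 12 arrays, which may be technical. KA is 1 subline, and its origin cannot be told apart from the drug in its medium.

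Decitabine resembles deoxycytidine. Replicating cells put it into new DNA strands, DNA methyltransferases become trapped on it, and CpG methylation thins out over divisions, so that silenced promoters can be switched on. Several programmes can be read from expression in such cells. The kinase BCR-ABL drives K562 and feeds the ERK pathway, whose output is read from immediate early genes such as FOS and EGR1 and from the feedback inhibitors of the Sprouty family. ATF4 is a transcription factor made when amino acids run short or unfolded proteins gather in the endoplasmic reticulum, and it switches on amino acid transporters, amino acid synthesis and tRNA synthetases through a short DNA element. K562 cells also carry part of the red cell programme, with embryonic and foetal globins, haem enzymes and erythrocyte membrane proteins.

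The threshold for calling a difference was an adjusted p of 0.05 (limma, Benjamini-Hochberg over 18417 genes). The medians of the 12 arrays ran from 4.96 to 5.01, and correlations within groups, across transcript clusters, from 0.990 to 0.995. In untreated KS, replicate 3 differed from both other arrays on many genes that decitabine raised in KS, and it had the lowest of 12 estimated array weights (0.42, against 3.60 for the highest). Counts of called differences are therefore given with and without it, and a value after a semicolon behind a difference is that without it. The fit takes 1 spread per gene from all arrays, so this array also bears on calls in KA. For example, the KA response of CA1, a carbonic anhydrase, had an adjusted p of 0.0771 with it and 1.6e-05 without it (limma). Calls of a response in KA are from all 12 arrays unless stated otherwise. Of the red cell programme, HBE1, embryonic epsilon globin, read 12.45 to 12.78 on all 12 arrays, while HBB, adult beta globin, read 4.70 to 5.90. Of markers of other cell types, 1 of 14 lymphoid and 0 of 11 epithelial genes was called for the difference, beside 6.74% of all genes. The lymphoid gene was CD22, a call lost with 7 single arrays left out. Among 14 fibroblast and endothelial genes 0 were called. At that share such short lists hold few calls, so the counts do not set these markers apart from other genes. The mean log2 level of the 14 fibroblast and endothelial genes lay between 3.83 and 4.01 on every array. Background was taken as 3.39 log2, the highest of the arrays' lower quartiles, and a group mean at or under it gives only a lower bound for a change.

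The sequences below show promoters of genes described in the results, with a known element or their CpGs marked. They are the 250 bases before the start site in RefSeq (GRCh38.p14), written 5′ to 3′ on the strand of the gene. The first set holds genes of the ATF4 response, with the C/EBP-ATF response element (TGATGNAA, searched on both strands) in capitals. The regions are chr7:97872409-97872658 (minus strand), chr15:40953221-40953470 (plus strand) and chr16:56931892-56932141 (plus strand).
ASNS: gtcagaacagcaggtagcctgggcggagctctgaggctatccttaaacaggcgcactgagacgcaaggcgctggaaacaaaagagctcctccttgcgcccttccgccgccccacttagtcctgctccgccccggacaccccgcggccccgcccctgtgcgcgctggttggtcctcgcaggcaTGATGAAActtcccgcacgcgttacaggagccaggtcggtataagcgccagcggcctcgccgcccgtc
CHAC1: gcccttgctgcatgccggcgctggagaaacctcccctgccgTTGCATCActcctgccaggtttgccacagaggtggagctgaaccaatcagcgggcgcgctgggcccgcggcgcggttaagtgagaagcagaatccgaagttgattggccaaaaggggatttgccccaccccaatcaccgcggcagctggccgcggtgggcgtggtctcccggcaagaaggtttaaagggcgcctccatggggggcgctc
HERPUD1: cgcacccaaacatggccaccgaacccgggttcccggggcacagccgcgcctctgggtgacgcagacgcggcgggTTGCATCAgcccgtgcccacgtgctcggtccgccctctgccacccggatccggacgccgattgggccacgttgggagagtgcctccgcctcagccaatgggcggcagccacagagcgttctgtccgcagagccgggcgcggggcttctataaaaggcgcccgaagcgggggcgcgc
The element began at position -68 from the start site in ASNS, -209 in CHAC1 and -176 in HERPUD1. Over windows from 250 bases before to 50 after the start, it was found in 6 of the 32 genes of the ATF4 list that had a window (18.8%), in 6 of 16 cytosolic tRNA synthetases (37.5%) and in 3.67% of all 27305 promoters of that length. Among the 14237 tested genes with a window the share was 2.54%. The ATF4 list names genes of a response that uses this element, and the synthetase list was formed after the values were seen. Their shares therefore describe and do not support. PSAT1, PHGDH and ATF5 had no match. The matches are of letters and not measured sites. EGR1, at chr5:138465229-138465478 (plus strand), is shown for its CArG boxes, the element bound by serum response factor, in capitals.
EGR1: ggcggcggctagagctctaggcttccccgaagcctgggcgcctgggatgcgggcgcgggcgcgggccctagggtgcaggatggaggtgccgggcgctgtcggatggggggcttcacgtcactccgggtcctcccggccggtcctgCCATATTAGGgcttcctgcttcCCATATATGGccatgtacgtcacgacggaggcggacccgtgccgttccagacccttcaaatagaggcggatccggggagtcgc
Its 2 boxes began at -105 and -83, and a box was found in 1.29% of all promoters. No box was found in the windows of FOS, EREG and SPRY4. RUNDC3B, at chr7:87628148-87628397 (plus strand), and HPGD, at chr4:174522489-174522738 (minus strand), are shown for their CpG dinucleotides, in capitals. With all arrays, a rise with decitabine was called in KA alone for the first gene and in KS alone for the second.
RUNDC3B: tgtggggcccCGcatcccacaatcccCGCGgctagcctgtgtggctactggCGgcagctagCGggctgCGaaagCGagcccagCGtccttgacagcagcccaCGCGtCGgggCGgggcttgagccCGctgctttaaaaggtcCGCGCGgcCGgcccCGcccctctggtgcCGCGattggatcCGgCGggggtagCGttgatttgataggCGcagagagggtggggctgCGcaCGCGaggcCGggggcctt
HPGD: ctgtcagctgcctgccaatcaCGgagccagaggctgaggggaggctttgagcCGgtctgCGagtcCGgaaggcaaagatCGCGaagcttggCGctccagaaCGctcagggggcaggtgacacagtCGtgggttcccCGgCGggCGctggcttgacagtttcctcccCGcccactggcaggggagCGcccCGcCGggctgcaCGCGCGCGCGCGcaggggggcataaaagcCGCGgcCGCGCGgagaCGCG
In the 250 bases printed there were 28 CpGs for RUNDC3B and 29 for HPGD. The windows that reach 50 bases past the start held 32 and 34. Other genes called in 1 line alone had fewer there, such as ATF5 with 3 and HBD with 2. DNA methylation was not measured in these data.

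Decitabine changed gene expression in both lines, and 1241 genes (6.74%) answered differently in the 2 lines. For 847 of them (4.6%) the difference was positive, and for 394 (2.14%) negative. Without untreated KS replicate 3, 2049 genes (11.1%) were called, 1300 positive (7.06%) and 749 negative (4.07%), and 1190 genes were called with the same sign in both fits, which is 95.9% of the first count and 58.1% of the second. The split between signs depended on scaling, since quantile normalization gave 611 positive and 522 negative calls. Differences of at least 1, a doubling, were called in 42 genes upwards and 45 downwards, and in 67 and 99 genes without that array. The count of calls was 564 without untreated KS replicate 1, 636 without untreated KA replicate 2 and between 670 and 780 without treated KA replicate 1, 2 or 3, untreated KA replicate 1, or treated KS replicate 2 or 3. It was 884 without untreated KA replicate 3, 865 without untreated KS replicate 2 and 1085 without treated KS replicate 1. Each gene named below kept its call for the difference with any 1 of the 12 arrays left out unless the loss is stated, also where only its responses are given.

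Most of the differences were in genes whose response was called in KS and not in KA. Of the 1241 genes, 803 (64.7%) had a called response in KS alone, of which 545 fell and 258 rose there, and 174 had one in KA alone, of which 142 rose. Another 187 were called in both lines in the same direction, 176 of them with the larger response in KS, 52 were called in both lines in opposite directions, and 25 in neither line. Without untreated KS replicate 3 these counts were 1247, 211, 461, 63 and 67. With any other array left out, KS alone held 367 (without untreated KS replicate 1) to 704 genes (without treated KS replicate 1) and remained the largest class. Decitabine called 2685 rises (14.6%) and 2900 falls (15.7%) in KS, against 1780 rises (9.66%) and 914 falls (4.96%) in KA. Without untreated KS replicate 3 there were 2710 rises (14.7%) and 3065 falls (16.6%) in KS, and 1943 rises and 1077 falls in KA. Of the genes called in both lines, 1787 moved in the same direction, which is 66.3% of the calls in KA and 32.0% of those in KS, and across all genes the responses of the 2 lines correlated at 0.62 (0.60 without the array). These lines share no arrays, and genes are not independent replicates.

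**Figure D1:**
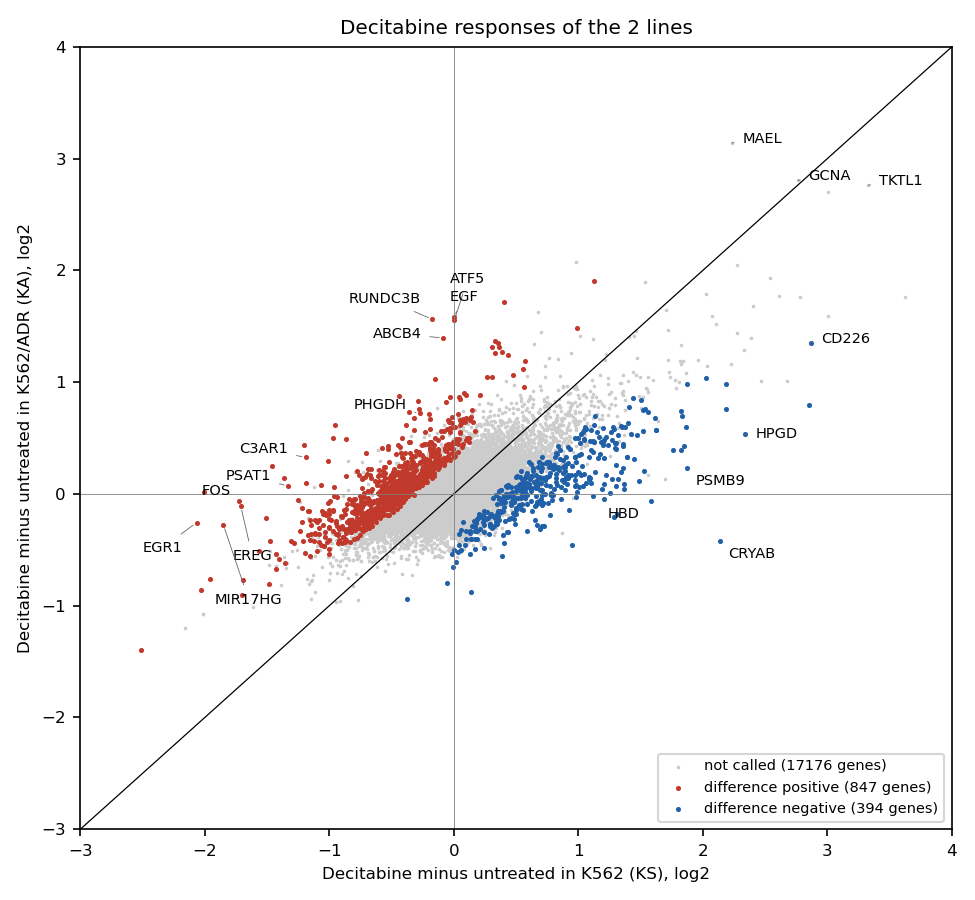
Response to decitabine in KS (horizontal, log2) against the response in KA (vertical, log2) for 18417 genes, each the mean of 3 treated minus the mean of 3 untreated arrays. The diagonal marks equal responses. The 847 genes with a positive called difference (red) lie above it and the 394 with a negative one (blue) below it, with ATF5, EGF, RUNDC3B and ABCB4 high on the vertical axis near 0 on the horizontal one, and CRYAB and HPGD far to the right.

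The clearest group was the ATF4 and unfolded protein response. Its list, like those below, was chosen with earlier results of these data known or after the values were seen. Counts over lists therefore describe and do not support. Of 36 measured genes, 22 were called with a positive difference and 0 with a negative one, beside 4.6% and 2.14% of all genes. The median difference was 0.59, beside -0.0025 over all genes tested. Without untreated KS replicate 3 the counts were 24 and 0, median 0.63, beside 7.06% and 4.07% of all genes. The 2 lines moved apart: in KS 19 of the 36 fell and 4 rose, with a median response of -0.27, while in KA 19 rose and 1 fell, with a median of 0.31. Among all genes 15.7% fell and 14.6% rose in KS, and 9.66% rose and 4.96% fell in KA. With single arrays left out, 18 to 24 members were called. In KS 4 rose and 19 fell without untreated KS replicate 3 too.

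Some members fell in KS and did not pass the test in KA. PSAT1, phosphoserine aminotransferase of serine synthesis, read 8.02, 8.10 and 7.91 log2 on the untreated KS arrays and 6.92, 6.62 and 6.49 after decitabine. In KA it read 8.23, 8.27 and 8.23 without and 8.33, 8.23 and 8.38 with the drug. Both KS groups were separate and all 3 treated KS arrays lay below every other array, while the KA groups overlapped. The response was -1.33 ± 0.10 (SE) in KS and 0.07 ± 0.10 in KA, a difference of 1.40 ± 0.14 (adjusted p = 0.000821, limma; 1.45 without the array). SLC7A11, the cystine and glutamate exchanger, responded by -1.07 in KS and 0.08 in KA (difference 1.15 ± 0.18; 1.26). SLC7A5, the transporter of large neutral amino acids, responded by -0.97 and 0.06 (1.03 ± 0.12; 1.06). TRIB3, a pseudokinase induced by ATF4, responded by -0.87 and 0.16 (1.03 ± 0.15; 1.06), and CHAC1, which degrades glutathione, by -0.96 and -0.02 (0.94 ± 0.14; 1.04). The mRNA of ATF4 itself fell by 0.69 in KS and changed by 0.22 in KA, which did not pass the test there, a difference of 0.91 ± 0.14 (adjusted p = 0.00435, limma; 0.96).

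Other members rose in KA and did not pass the test in KS. ATF5, a transcription factor of the same family, read 6.23, 6.25 and 6.57 in untreated and 6.38, 6.41 and 6.27 in treated KS. It read 6.28, 6.23 and 6.11 in untreated and 7.58, 7.83 and 7.86 in treated KA. Treated KA stood above the other 9 arrays by more than 1, and the KS groups overlapped. The response in KA was 1.55 ± 0.10, that in KS 0.00 ± 0.10, and the difference 1.55 ± 0.15 (adjusted p = 0.000821, limma; 1.44 without untreated KS replicate 3). Genes of protein folding and export in the endoplasmic reticulum behaved in this way too: SEL1L, an adaptor of the ubiquitin ligase that clears misfolded proteins, responded by 0.82 in KA and -0.07 in KS, SDF2L1, part of a chaperone complex, by 0.71 and -0.20, and DNAJC3, a co-chaperone, by 0.67 and 0.07. HSPA5, the main chaperone there, responded by 0.57 and -0.10, with a difference of 0.67 ± 0.15 (adjusted p = 0.0199, limma; 0.74) that was lost without untreated KA replicate 1, treated KS replicate 3 or untreated KS replicate 1 (adjusted p = 0.05, 0.0532 and 0.0563, limma). DDIT3, the stress factor CHOP, rose in both lines, by 1.01 in KA and 0.42 in KS, and its difference of 0.59 missed the threshold (adjusted p = 0.0531, limma; 0.57).

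A further set of members rose in KA and fell in KS. HERPUD1, a membrane protein of endoplasmic reticulum degradation, read 8.17, 8.13 and 8.11 in untreated and 7.89, 7.82 and 7.74 in treated KS, and 8.62, 8.57 and 8.65 in untreated and 9.22, 9.14 and 9.19 in treated KA. The treated group was below the untreated one in KS and above it in KA, with no overlap in either. Its responses were -0.32 ± 0.07 and 0.57 ± 0.07, and the difference 0.89 ± 0.09 (adjusted p = 0.000857, limma; 0.90 without the array). PHGDH, the first enzyme of serine synthesis, fell by 0.27 in KS and rose by 0.72 in KA (difference 0.99 ± 0.11; 1.0), and ASNS, asparagine synthetase, fell by 0.31 and rose by 0.34 (0.65 ± 0.13; 0.69). XBP1, a transcription factor of the unfolded protein response, fell by 0.39 and rose by 0.28 (0.67 ± 0.11; 0.71). SLC3A2, the partner of SLC7A5 and SLC7A11 at the membrane, fell by 0.47 and rose by 0.36 (0.83 ± 0.11; 0.87).

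Enzymes that use the same amino acids also had positive differences, and more of their responses were called in KS than in KA. These lists were added after the values had been seen, so their counts too describe and do not support. Of 19 cytosolic tRNA synthetases, which load amino acids onto tRNAs, 11 had a positive difference and 0 a negative one. Without untreated KS replicate 3 there were 13 and 0. The median difference was 0.46. In KS 15 fell and 1 rose, and in KA 3 rose and 2 fell, with a median response of 0.12. Among all genes 4.6% had a positive and 2.14% a negative difference (7.06% and 4.07% without that array). In KS 15.7% of all genes fell, and in KA 9.66% rose and 4.96% fell. WARS1, for tryptophan, read 9.98, 10.00 and 9.85 in untreated and 9.65, 9.49 and 9.44 in treated KS, against 10.56, 10.55 and 10.66 in untreated and 10.98, 11.13 and 11.15 in treated KA. The groups did not overlap in either line, and the directions were opposite. It fell by 0.41 ± 0.08 and rose by 0.50 ± 0.08, a difference of 0.91 ± 0.11 (adjusted p = 0.00221, limma; 0.96 without the array). CARS1, for cysteine, fell by 0.53 and rose by 0.40, and MARS1, for methionine, fell by 0.67 in KS and responded by 0.14 in KA. VARS1, for valine, fell in both lines, by 0.93 in KS and 0.36 in KA (difference 0.57 ± 0.11; 0.60). Of 20 enzymes of amino acid and one-carbon metabolism, which share members such as PHGDH, PSAT1 and ASNS with the ATF4 list, 9 had a positive difference and 0 a negative one (10 and 0). In KS 14 of the 20 fell and 0 rose, and in KA 6 rose and 1 fell, with a median response of 0.07. GOT1, aspartate aminotransferase, fell by 0.53 in KS and rose by 0.43 in KA, CTH, which makes cysteine, fell by 0.43 and rose by 0.42, MTHFD1L, a mitochondrial folate enzyme, fell by 1.05 and responded by -0.18, and ALDH1L2, another, responded by 0.04 and rose by 0.87.

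**Figure D2:**
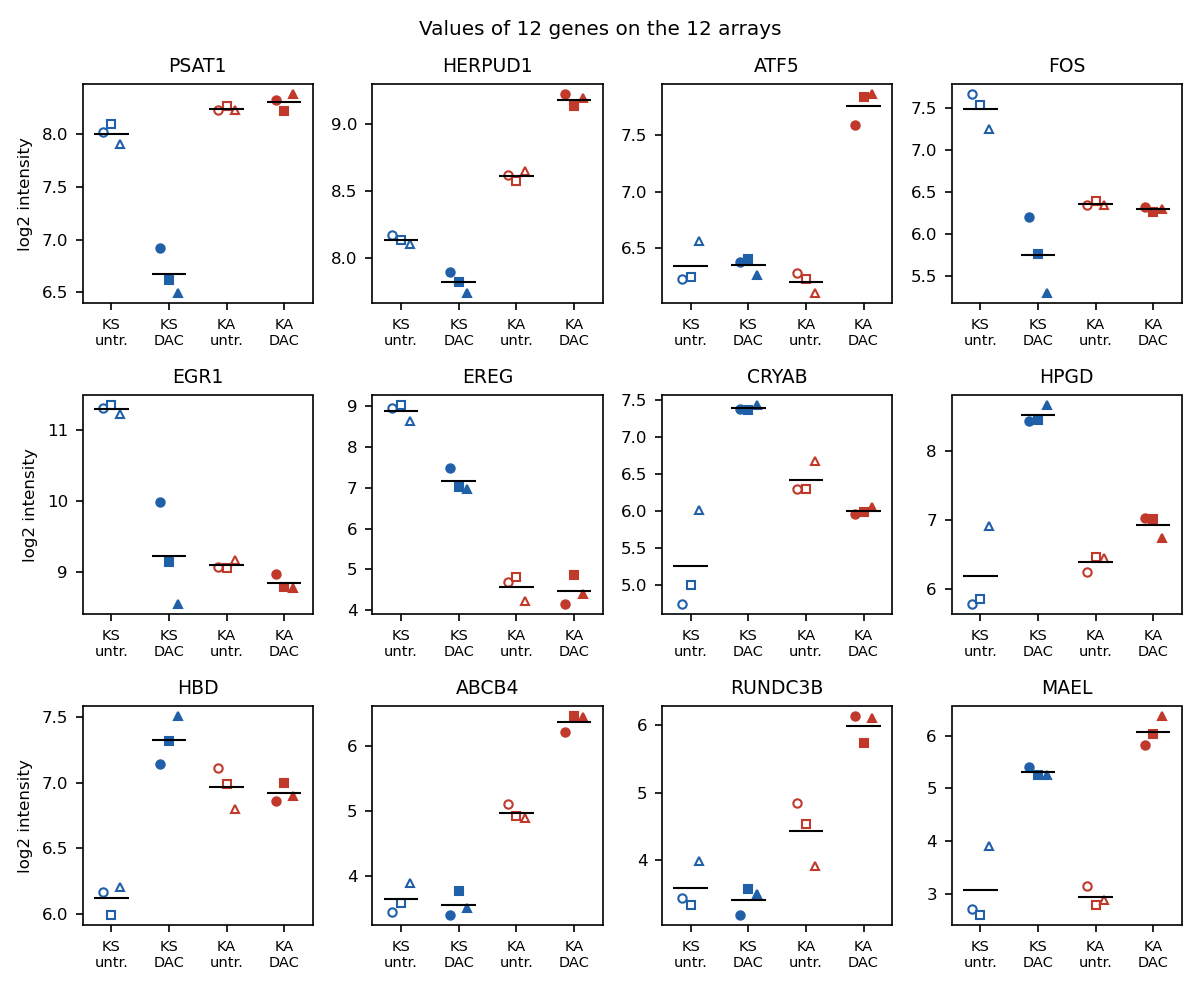
Log2 intensity of 12 genes on the 12 arrays: open symbols are untreated, filled symbols decitabine (DAC), blue KS, red KA. Circle, square and triangle are replicates 1, 2 and 3, and the bar is the mean of 3 arrays. The vertical scale differs between panels. In PSAT1, FOS, EGR1 and EREG the step is in KS, in ATF5, ABCB4 and RUNDC3B it is in KA, HERPUD1 moves in opposite directions, and in CRYAB, HPGD and MAEL the triangle of untreated KS stands above its group.

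ERK output and immediate early genes fell in KS and mostly did not pass the test in KA. Of 32 measured genes, 10 were called with a positive difference and 2 with a negative one, median 0.21 (11 and 3, median 0.22, without the array), beside 4.6% positive and 2.14% negative among all genes. In KS 18 fell and 3 rose (18 and 4 without the array), where 15.7% of all genes fell, and in KA 4 fell and 1 rose, where 4.96% fell. FOS, a component of the transcription factor AP-1, read 7.66, 7.53 and 7.25 in untreated and 6.20, 5.76 and 5.30 in treated KS, and 6.34, 6.39 and 6.34 in untreated and 6.32, 6.27 and 6.30 in treated KA. It fell by 1.73 ± 0.17 in KS, where the treated arrays lay below every KA array, while the response in KA was -0.06 ± 0.17 and the difference 1.66 ± 0.24 (adjusted p = 0.00289, limma; 1.78 without the array).

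EGR1, a zinc-finger factor of the same early wave, read 11.31, 11.34 and 11.21 in untreated KS and 9.98, 9.13 and 8.54 in treated KS. In KA it read 9.06, 9.06 and 9.16 without and 8.96, 8.78 and 8.77 with decitabine. Untreated KS was the highest group, and the 3 treated KS arrays spread from below to above the range of the KA arrays. The response was -2.07 ± 0.25 in KS and -0.26 ± 0.25 in KA, which did not pass the test, and the difference 1.81 ± 0.35 (adjusted p = 0.0119, limma; 1.85). EREG, a ligand of the EGF receptor family, fell by 1.71 ± 0.20 in KS from 8.96, 9.02 and 8.63, and its levels in KA were lower throughout, 4.22 to 4.82 untreated and 4.15 to 4.86 treated (difference 1.60 ± 0.28; 1.72). The feedback inhibitor SPRY4 fell by 1.26 in KS and responded by -0.06 in KA (1.20 ± 0.18; 1.33). The ETS factors ETV4 and ETV5 fell by 1.0 and 0.82 and responded by -0.06 each, and FOSL1, another AP-1 component, fell by 0.80 and responded by -0.17. The members with a negative difference were PHLDA1, which rose by 0.88 in KS, and FOSL2, which rose by 0.39 there. Both were called without untreated KS replicate 3 as well, but FOSL2 was lost with any other array left out (adjusted p from 0.0573 to 0.11, limma) and PHLDA1 without treated KA replicate 2 or untreated KS replicate 1 (0.0511 and 0.054).

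Other growth and signalling genes, chosen for their difference or from the lists, did not share 1 direction. MIR17HG, host of the miR-17 cluster of growth-promoting microRNAs, read 8.40, 8.60 and 8.08 in untreated and 6.88, 6.12 and 6.52 in treated KS, against 6.65, 6.65 and 6.68 in untreated and 6.47, 6.34 and 6.35 in treated KA. It fell by 1.85 ± 0.16 in KS, to arrays that lay below, within and above the range of KA, and the difference was 1.58 ± 0.23 (adjusted p = 0.00289, limma; 1.72). C3AR1, the receptor for complement C3a, fell by 1.19 ± 0.10 in KS, and its response of 0.33 in KA missed the threshold (adjusted p = 0.0552, limma), for a difference of 1.51 ± 0.15 (1.57 without the array). STAT5A, a transcription factor downstream of BCR-ABL, fell by 0.92 in KS and by 0.31 in KA (difference 0.61 ± 0.11; 0.66), and the STAT5 target PIM1, a kinase, fell by 0.53 in KA and responded by 0.13 in KS (difference -0.67 ± 0.12; -0.67). SOCS1, a feedback inhibitor of cytokine signalling, rose by 1.01 in KS and responded by 0.06 in KA (-0.94 ± 0.17; -1.11). MYC, at 9.47 to 10.16 on all 12 arrays, fell by 0.23 and 0.25 and had a difference of -0.02 ± 0.09 (-0.03 without the array).

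**Figure D3:**
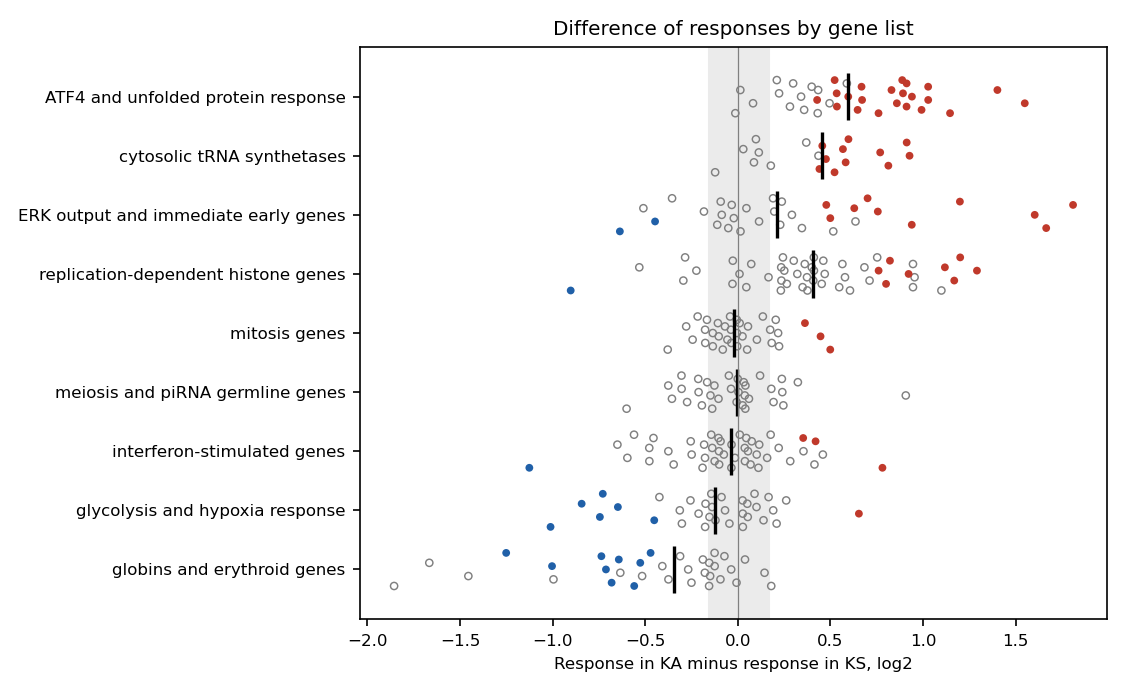
Difference of the responses (KA minus KS, log2) for each measured member of 9 gene lists. Filled points are called (red positive, blue negative), open points are not, black bars are list medians and the grey band runs from the lower to the upper quartile of all genes, -0.15 to 0.17. The vertical position within a list only separates points. The ATF4 list and the tRNA synthetases lie right of the band, the erythroid genes left of it, and mitosis and germline genes around 0.

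Red cell genes rose further in KS. Of 34 measured globin and erythroid genes, 0 had a positive called difference and 9 a negative one, median -0.34, beside 2.14% negative among all genes, and without untreated KS replicate 3 there were 16, median -0.41, beside 4.07%. With any other array left out, 7 to 9 were called. In KS 24 of the 34 rose and 2 fell, with or without the array, beside 14.6% of all genes that rose. In KA 13 rose and 2 fell with all arrays, beside 9.66% of all genes that rose. In such bulk RNA, a change in the share of cells of a type and one in RNA per cell cannot be told apart. HBD, the delta globin of adult red cells, read 6.16, 5.99 and 6.21 in untreated and 7.14, 7.32 and 7.51 in treated KS, and 7.11, 6.99 and 6.80 in untreated and 6.86, 7.0 and 6.90 in treated KA. Treated KS rose to or above the range of KA, whose groups overlapped. The response was 1.20 ± 0.10 in KS and -0.05 ± 0.10 in KA, and the difference -1.25 ± 0.15 (adjusted p = 0.00194, limma; -1.29 without the array).

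Other members of the red cell programme showed smaller differences. HBZ, embryonic zeta globin, rose by 0.47 in KS and responded by -0.05 in KA (-0.53 ± 0.11; -0.59), and SLC25A37, the mitochondrial iron importer, rose by 0.92 and responded by 0.28 (-0.64 ± 0.13; -0.75). XK, an erythrocyte membrane protein, rose by 0.59 and responded by -0.09 (-0.68 ± 0.10; -0.71). CPOX, an enzyme of haem synthesis, rose by 0.49 in KS and fell by 0.23 in KA (-0.71 ± 0.09; -0.74). HEMGN, a nuclear protein of erythroid cells, fell by 0.50 in KA and responded by 0.06 in KS (-0.56 ± 0.12; -0.52). GATA1, the erythroid master factor, had a difference of -0.05 ± 0.11 (adjusted p = 0.847, limma; -0.12).

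The genes with the largest erythroid responses depended on 1 array. SLC4A1, the anion exchanger band 3, read 4.98, 4.63 and 7.45 in untreated and 9.18, 9.39 and 9.36 in treated KS, and 6.33, 6.32 and 6.40 in untreated and 8.08, 8.12 and 8.14 in treated KA. The value of 7.45, untreated KS replicate 3, stood between its own group and the treated one. The difference was -1.86 ± 0.71 with it (adjusted p = 0.142, limma) and -2.74 without it (adjusted p = 2.6e-06, limma). CA1, carbonic anhydrase, moved from -1.67 (adjusted p = 0.0659, limma) to -2.28, and ALAS2, the first enzyme of erythroid haem synthesis, from -1.46 (adjusted p = 0.068, limma) to -1.99, both called without the array. AHSP, the chaperone of alpha globin, moved from -1.0 to -1.54 (adjusted p = 0.237 and 0.0027, limma).

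**Figure D4:**
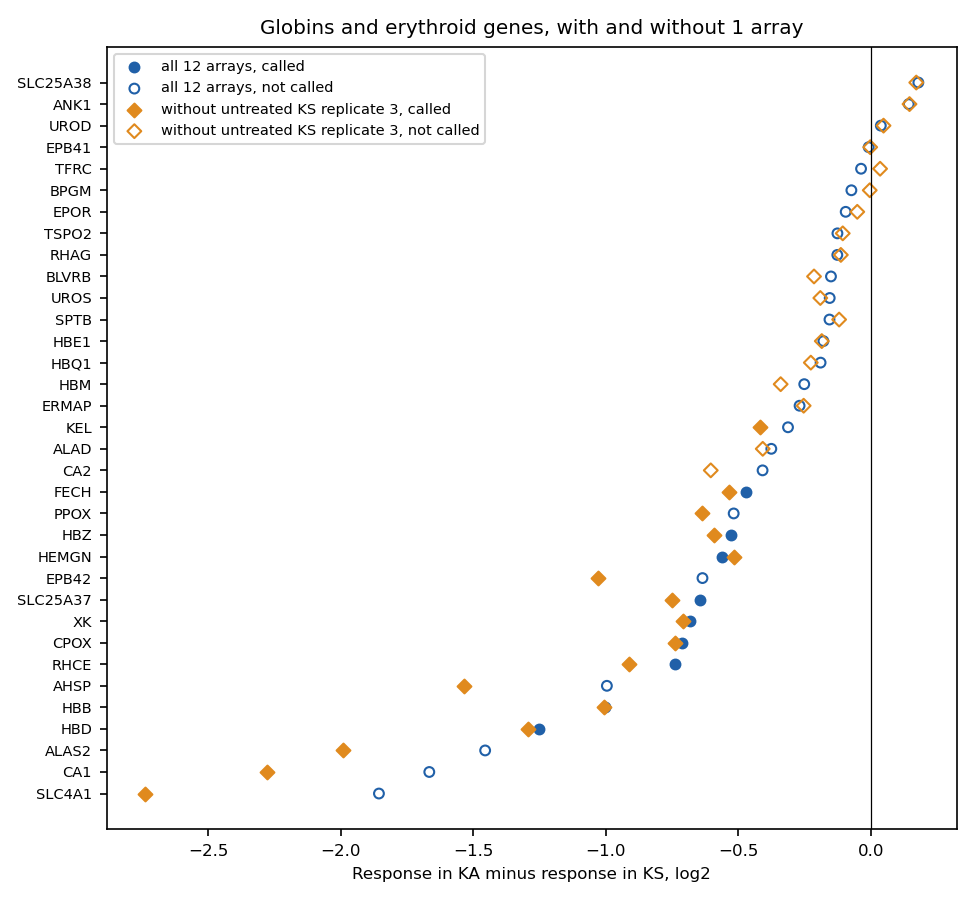
Difference of the responses (KA minus KS, log2) of 34 globin and erythroid genes, from all 12 arrays (blue circles) and without untreated KS replicate 3 (orange diamonds). Filled symbols are called at an adjusted p under 0.05. Without the array SLC4A1, CA1, ALAS2, AHSP, EPB42, PPOX and KEL are called in addition, and no filled symbol lies right of 0.

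The megakaryocyte lineage showed no common direction. Of 24 measured genes, 2 had a positive and 3 a negative difference, beside 4.6% and 2.14% of all genes. Without the array these were 2 and 4, beside 7.06% and 4.07%. The positive ones were THBS1, thrombospondin, which rose by 0.61 in KA and responded by -0.38 in KS (1.0 ± 0.25; 0.79), and ITGA2B, the platelet integrin chain, which rose by 0.99 in KS and 1.49 in KA (0.50 ± 0.13; 0.40). Their calls were kept with 5 and 3 of the 12 arrays left out in turn and lost with the rest. TUBB1, a platelet tubulin, rose by 0.97 in KS and responded by 0.07 in KA (-0.90 ± 0.12; -0.96). CD36, a platelet and red cell surface receptor, rose by 0.35 in KS and its response of -0.27 in KA missed the threshold (adjusted p = 0.052, limma), for a difference of -0.62 ± 0.12 (-0.53 without the array).

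Many histone genes fell in both lines. Of 49 measured replication-dependent histone genes, 36 fell and 6 rose in KS, and 28 fell and 3 rose in KA, beside 15.7% and 4.96% of all genes that fell. The KS counts were the same without untreated KS replicate 3. The difference was above 0 for 42 of the 49 with a median of 0.41, but only 8 positive and 1 negative difference were called, and 14 and 2 without untreated KS replicate 3, beside 4.6% and 7.06% of all genes called positive. The count of positive calls was 23 without treated KS replicate 1 and 3 to 5 without any 1 of the remaining 10 arrays. H3C1, an H3 gene, read 7.40, 7.22 and 6.90 in untreated and 5.90, 5.66 and 5.44 in treated KS, against 5.96, 6.14 and 6.33 in untreated and 5.75, 6.05 and 5.98 in treated KA. It fell by 1.51 ± 0.15 in KS to the lower end of KA or below, and its response in KA was -0.22 ± 0.15, for a difference of 1.29 ± 0.21 (adjusted p = 0.0055, limma; 1.43). H4C2 fell by 1.96 in KS and 0.76 in KA (1.20 ± 0.23; 1.27), and H2AC8 by 1.69 and 0.77 (0.92 ± 0.19; 0.97). H4C9 went the other way, with a rise of 0.98 in KS and a response of 0.08 in KA (-0.90 ± 0.13; -1.02). Clustered histone genes are near copies of each other, so which member a probe set reads is uncertain.

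Of 115 C/D box small nucleolar RNAs, guides of ribosomal RNA methylation, 42 fell and 8 rose in KS (43 and 6 without untreated KS replicate 3). In KA 12 fell and 0 rose. All 4 group means were at background for 46 of the 115. Of the 115, 11 had a positive and 2 a negative difference (18 and 4 without that array). Of 61 H/ACA box RNAs, guides of pseudouridylation, 18 fell and 12 rose in KS (21 and 11) and 2 fell and 2 rose in KA, and 8 had a positive and 1 a negative difference (14 and 2). These lists were formed after the values had been seen. Among all genes 15.7% fell and 14.6% rose in KS, and 4.96% fell and 9.66% rose in KA. A positive difference was called in 4.6% of all genes and a negative one in 2.14% (7.06% and 4.07% without untreated KS replicate 3). With another array left out, the calls numbered 8 (without untreated KS replicate 1) to 15 (without treated KS replicate 1) for the C/D box RNAs and 5 (without untreated KA replicate 2 or untreated KS replicate 1) to 10 (without treated KS replicate 1) for the H/ACA box RNAs. SNORD14E, a C/D box RNA, read 7.27, 7.31 and 6.80 in untreated and 5.95, 5.58 and 6.22 in treated KS, and 6.07, 6.46 and 6.50 in untreated and 6.68, 6.68 and 6.99 in treated KA. It fell by 1.21 ± 0.18 in KS, its response of 0.44 in KA did not pass the test, and the difference was 1.65 ± 0.25 (adjusted p = 0.00394, limma; 1.81). Probes on such short RNAs can also read the host transcript.

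Of the genes around ABCB1, ABCB4 and RUNDC3B rose in KA and did not pass the test in KS. ABCB1 encodes P-glycoprotein, the pump that carries anthracyclines out of the cell, and KA expresses it at a high level. It read 11.22, 11.17 and 11.26 in untreated and 11.32, 11.36 and 11.41 in treated KA, and 3.05 to 3.78 on the 6 KS arrays, at or near background. All treated KA arrays were above the untreated ones, but the response of 0.15 ± 0.15 was not called, and the difference was 0.08 ± 0.21 (adjusted p = 0.871, limma; -0.04 without the array). Its neighbour ABCB4, a phospholipid exporter of the same family, read 5.10, 4.91 and 4.89 in untreated and 6.21, 6.45 and 6.44 in treated KA, and 3.45, 3.58 and 3.89 in untreated and 3.40, 3.77 and 3.50 in treated KS. It rose by 1.40 ± 0.12 in KA, its response in KS was -0.08 ± 0.12, and the difference was 1.48 ± 0.18 (adjusted p = 0.00194, limma; 1.36).

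RUNDC3B, whose annotated span overlaps that of ABCB1 on the other strand of chromosome 7q21, followed ABCB4. RUNDC3B read 4.85, 4.53 and 3.91 in untreated and 6.13, 5.75 and 6.11 in treated KA, and 3.19 to 3.99 on the 6 KS arrays. The KA groups did not overlap and the KS groups did. It rose by 1.56 ± 0.22 in KA and responded by -0.17 ± 0.22 in KS, a difference of 1.74 ± 0.31 (adjusted p = 0.00926, limma; 1.54). Of the 31 measured genes of this region, 3 had a positive and 1 a negative difference, beside 4.6% and 2.14% of all genes. Without untreated KS replicate 3 there were 6 and 1, beside 7.06% and 4.07%. Other genes there, picked after their values were seen, did not all follow ABCB4. AKAP9 and DMTF1 rose in both lines, by 0.54 and 0.66 in KS and by 0.26 and 0.39 in KA. SRI and SLC25A40 were called in neither line. None of these was called for the difference. CROT, at background in KS, rose by 0.53 in KA, and its difference of 0.41 was called only without untreated KS replicate 3. SAMD9, an antiviral factor further along the arm that is also on the interferon list, read 3.31, 3.50 and 3.34 in untreated and 4.41, 4.46 and 4.42 in treated KA, a rise of 1.05 ± 0.12. Its mean was at background in both untreated groups, so the sizes are not exact. Its difference of 0.78 ± 0.18 (adjusted p = 0.0226, limma; 0.88) was lost without treated KA replicate 2, untreated KA replicate 1 or treated KS replicate 2 (adjusted p = 0.053, 0.0535 and 0.0507, limma). The negative member was ELAPOR2, an endosomal membrane protein at 11.67 to 11.86 in KA, which rose by 0.71 in KS and responded by 0.14 in KA (-0.58 ± 0.10; -0.61).

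Outside that region, EGF, the ligand of the EGF receptor, read 4.45, 4.32 and 4.57 in untreated and 5.83, 5.86 and 6.40 in treated KA, and 3.24 to 3.79 on the 6 KS arrays. It rose by 1.58 ± 0.17 in KA with a difference of 1.58 ± 0.24 (adjusted p = 0.00394, limma; 1.46). ICAM1, a leukocyte adhesion molecule, rose by 0.69 ± 0.07 in KA and responded by -0.02 in KS (0.71 ± 0.09; 0.70). CDC20, an activator of the anaphase-promoting complex, rose by 0.43 in KA and responded by -0.06 in KS (0.50 ± 0.09; 0.53).

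The largest negative differences belonged to genes that rose in KS and rose less, or did not pass the test, in KA. CRYAB, a small heat shock protein, read 4.74, 5.00 and 6.01 in untreated and 7.38, 7.36 and 7.42 in treated KS, and 6.29, 6.30 and 6.67 in untreated and 5.96, 5.99 and 6.05 in treated KA. Treated arrays were above untreated ones in KS and below them in KA. It rose by 2.14 ± 0.23 in KS, and its response of -0.42 ± 0.23 in KA was not called with all arrays. The difference was -2.56 ± 0.33 (adjusted p = 0.00236, limma; -2.93 without the array). HPGD, the enzyme that inactivates prostaglandins, read 5.78, 5.85 and 6.92 in untreated and 8.45, 8.45 and 8.67 in treated KS, and 6.25, 6.47 and 6.45 in untreated and 7.03, 7.01 and 6.73 in treated KA. The groups were separate in both lines, with the wider step in KS. It rose by 2.34 ± 0.23 in KS, and its response in KA of 0.54 was not called with all arrays. The difference was -1.80 ± 0.32 (adjusted p = 0.0087, limma; -2.17). In CRYAB and HPGD untreated KS replicate 3 lay apart from its group, which widens the SE in KA too. The missing calls in KA therefore do not show that there was no response there.

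Immune and adhesion genes were among this set. PSMB9, a subunit of the immunoproteasome, rose by 1.87 ± 0.17 in KS, from 4.36, 4.67 and 5.27 to 6.61, 6.62 and 6.69, and responded by 0.23 in KA (-1.65 ± 0.24; -1.90). TNFSF10, the death ligand TRAIL, rose by 1.49 ± 0.14 in KS from background and was at background in both KA groups (-1.37 ± 0.20; -1.48). CD226, an adhesion receptor of lymphocytes and platelets, rose in both lines, by 2.87 ± 0.21 in KS and 1.35 ± 0.21 in KA (-1.51 ± 0.30; -1.85). LAMB1, a laminin chain, rose by 1.28 ± 0.12 in KS and responded by -0.20 in KA (-1.49 ± 0.17; -1.57), and FLT1, a receptor of VEGF, rose by 1.31 ± 0.13 in KS from background and was at background in KA (-1.49 ± 0.19; -1.64). ZC3H6, a zinc-finger protein, rose by 1.59 ± 0.16 in KS, from 4.65, 4.53 and 5.32 to 6.28, 6.46 and 6.52, and lay at 6.64 to 6.96 in both KA groups (-1.65 ± 0.23; -1.89).

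Genes called in opposite directions in the 2 lines numbered 52, and 46 of these were so in both fits. Of the 46, 36 rose in KA and fell in KS and 10 did the reverse, and 43 kept the call for the difference with every array left out. The count of 52 became 24 without treated KA replicate 2, 26 without treated KA replicate 3 or untreated KA replicate 1, 28 to 34 without 6 other arrays (treated KA replicate 1, untreated KA replicates 2 and 3, treated KS replicates 1 and 3, untreated KS replicate 1), and 47 to 63 without treated KS replicate 2 or untreated KS replicate 2 or 3. ATP2A3, a calcium pump of the endoplasmic reticulum, read 7.31, 7.22 and 7.31 in untreated and 6.98, 6.92 and 6.88 in treated KS, and 7.46, 7.25 and 7.46 in untreated and 7.92, 8.09 and 8.36 in treated KA. The groups were separate in both lines. It fell by 0.36 ± 0.10 and rose by 0.73 ± 0.10, a difference of 1.09 ± 0.14 (adjusted p = 0.00236, limma; 1.08 without the array). MUC19, a gel-forming mucin, fell by 0.71 in KS and rose by 0.37 in KA (1.07 ± 0.16; 1.17).

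Of the 10 genes that rose in KS and fell in KA, the largest difference was that of ARRDC4. ARRDC4, an arrestin that limits glucose uptake, read 7.18, 7.01 and 7.28 in untreated and 7.81, 8.12 and 8.38 in treated KS, and 5.40, 5.54 and 5.64 in untreated and 5.04, 5.06 and 5.11 in treated KA. Treated arrays lay above untreated ones in KS and below them in KA. It rose by 0.95 ± 0.12 and fell by 0.46 ± 0.12, a difference of -1.40 ± 0.17 (adjusted p = 0.00221, limma; -1.47). PDK1, a kinase that inhibits pyruvate dehydrogenase, rose by 0.40 in KS and fell by 0.44 in KA (-0.84 ± 0.11; -0.90). BHLHE40, a repressor induced by hypoxia, rose by 0.38 and fell by 0.56 (-0.94 ± 0.11; -0.94). SLC22A4, a carnitine and ergothioneine transporter, rose by 0.40 and fell by 0.37 (-0.76 ± 0.11; -0.79), and MYO3B, a myosin, rose by 0.71 and fell by 0.29 (-1.0 ± 0.12; -1.07).

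Of 33 measured glycolysis and hypoxia genes, of which PDK1 is 1, 1 had a positive and 6 a negative difference (1 and 7 without untreated KS replicate 3, and 0 and 4 without untreated KA replicate 2 or untreated KS replicate 1), and 15 fell and 3 rose in KA while 11 fell and 8 rose in KS (11 and 9). Among all genes 4.6% had a positive and 2.14% a negative difference, 4.96% fell in KA and 15.7% fell in KS. EGLN3, an oxygen sensor, fell by 0.80 in KA and responded by -0.06 in KS (-0.75 ± 0.10; -0.70). P4HA1, a collagen prolyl hydroxylase, rose by 0.73 in KS and its response of -0.29 in KA was not called (-1.01 ± 0.15; -1.07). PFKFB4, a regulator of glycolysis, fell by 0.65 in KA (-0.65 ± 0.11; -0.61).

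**Figure D5:**
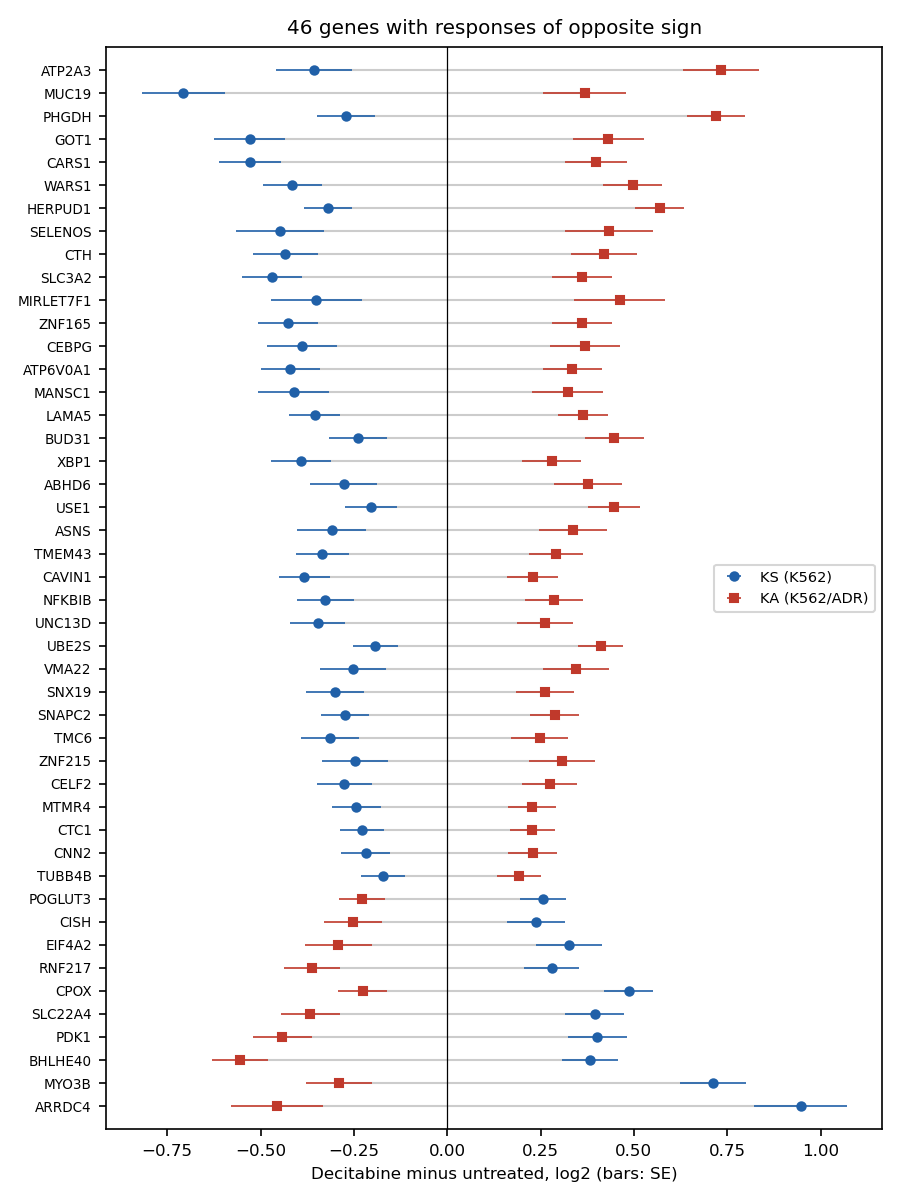
Responses to decitabine (log2, mean of 3 treated minus mean of 3 untreated arrays, bars are 1 SE) of the 46 genes called in opposite directions in KS (blue circles) and KA (red squares) with and without untreated KS replicate 3, ordered by the difference. At the top are 36 genes that rose in KA, led by ATP2A3 and MUC19, and at the bottom 10 that rose in KS, led by ARRDC4.

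Some of the strongest responses were shared in direction, most of them larger in KS. Of 60 genes called in both lines with the same sign and a size of at least 1 in each, 55 rose, 48 of these further in KS, and 56 of the 60 were not called for the difference with all arrays, although 35 of those 56 were without untreated KS replicate 3. MAEL, a piRNA pathway gene of the germline, read 2.72, 2.59 and 3.91 in untreated and 5.41, 5.25 and 5.26 in treated KS, and 3.14, 2.78 and 2.88 in untreated and 5.83, 6.03 and 6.37 in treated KA. Treated arrays were above untreated ones in both lines, and both untreated groups had means at background, so that each rise is a lower bound. GCNA, a germ cell nuclear protein whose untreated KA mean was at background, rose by 2.77 in KS and by at least 2.81 in KA.

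HORMAD1, a meiotic chromosome protein, read 2.35, 2.31 and 4.49 in untreated KS and 2.38, 2.57 and 2.18 in untreated KA, both with means at background, against 5.98 to 6.11 in treated KS and 5.01 to 5.18 in treated KA. It rose in both lines, each rise is a lower bound, and no difference is given for it. The difference of TKTL1, a transketolase-like protein, moved from -0.57 to -1.26 without replicate 3 (adjusted p = 0.63 and 0.0132, limma). C3, the central complement protein, moved from -0.61 to -1.16 (adjusted p = 0.49 and 0.00319, limma), and TNFRSF9, a costimulatory receptor, from -0.22 to -0.58 (adjusted p = 0.741 and 0.0333, limma). Of 33 germline genes, 10 rose and 2 fell in KA and 13 rose and 2 fell in KS. All 4 group means were at background for 15 of the 33. With all arrays 0 germline genes were called for the difference, and 2 negative without the array. Of 34 mitosis genes, 19 rose in KA and 20 in KS with medians of 0.30 and 0.31 (18 in KS without the array), and 3 had a positive difference with or without it. Of 45 interferon-stimulated genes, 13 rose in KA and 16 in KS, and 3 had a positive and 1 a negative difference, against 4 and 7 without the array. Among all genes 9.66% rose in KA and 14.6% in KS. A positive difference was called in 4.6% of all genes and a negative one in 2.14% (7.06% and 4.07% without the array).

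Lists of the drug's action and handling had called shares around the 6.74% of all genes. They were 3.7% for decitabine uptake and deoxynucleotide metabolism, 4.35% for DNA methylation machinery, 6.67% for efflux transporters and 9.52% for the anthracycline list. Of 27 genes of decitabine uptake and deoxynucleotide metabolism 1 was called, SLC29A4, a nucleoside and monoamine transporter, which rose by 0.90 in KS and 0.33 in KA (-0.56 ± 0.15; -0.64), a call kept with 3 of the 12 arrays left out in turn. NQO2, a quinone reductase on the anthracycline list, fell by 0.43 in KS and responded by 0.06 in KA (0.49 ± 0.10; 0.47). DNMT1, the maintenance DNA methyltransferase that decitabine traps, read 9.44 ± 0.02 (SD, n = 3) in untreated and 9.16 ± 0.06 in treated KS, and its difference was 0.17 ± 0.09 (adjusted p = 0.283, limma; 0.17). DNMT3B, a de novo methyltransferase, fell by 0.45 in KS and responded by -0.02 in KA, and its difference of 0.43 ± 0.12 (adjusted p = 0.0453, limma; 0.45) was kept without treated KA replicate 3 or untreated KS replicate 3 and lost without any 1 of the other 10 arrays (adjusted p from 0.0606 to 0.112, limma). DCK, the kinase that activates decitabine, had a difference of -0.21 ± 0.12, CDA, which inactivates it, -0.02 ± 0.14, and SLC29A1, a nucleoside importer, -0.22 ± 0.10, all not called (adjusted p = 0.346, 0.954 and 0.239, limma), and without untreated KS replicate 3 these were -0.14, -0.11 and -0.27. Of the genes of anthracycline action, TOP2A, the topoisomerase that anthracyclines poison, rose in both lines, by 0.53 in KS and 0.39 in KA, with a difference of -0.14 ± 0.11 (-0.12 without the array). ABCG2, another drug efflux pump, rose by 0.91 in KS and 0.46 in KA, and its difference of -0.45 ± 0.14 was not called (adjusted p = 0.0808, limma; -0.49). The efflux pump ABCC1, the de novo methyltransferase DNMT3A and UHRF1, which guides DNMT1 to DNA, had differences of -0.19, -0.10 and -0.12, not called (adjusted p = 0.257, 0.719 and 0.575, limma), and -0.23, -0.20 and -0.06 without the array. The nucleotide enzymes SAMHD1 and RRM2 and the carbonyl reductase CBR1 had differences of 0.34, -0.05 and 0.20 (adjusted p = 0.144, 0.883 and 0.701, limma), and 0.42, 0.05 and 0.37 without the array.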

How the data were processed

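Total RNA of 12 samples was measured on whole-transcript arrays, 1 array per sample. The deposited log2 values of the authors' series matrix were used as they are, and the tools and settings that made them are not given in the sources used here. Of 33297 transcript clusters, 19460 had 1 gene symbol in the platform annotation, 1754 had several and 12083 none. The brightest cluster stood for a gene with several (769 of 18417 genes). limma 3.58.1 (R 4.3.3) fitted 4 group means with lmFit and eBayes, and tested the difference of responses and the response in each line, with Benjamini-Hochberg adjustment over the 18417 genes. In 20 simulated sets with 200 changed genes, 31.4% of differences of 0.5 and 84.1% of differences of 1 were found, and 5.16% of calls were false. The simulated noise was independent between genes and alike on all arrays. It held no deviating array such as untreated KS replicate 3, so these rates may not hold for the real arrays. SE is the moderated standard error.

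Replicate numbers did not pair the samples: of 18 pairs with the same number, 2 had deviations that correlated above 0.1. The alternatives left out each array, centred or quantile-normalized arrays, filtered low values, added a replicate block, weighted arrays, changed the variance prior or took the median cluster. Gene lists and named genes were chosen with earlier results of these data known. The rule named the 12 largest differences each way, the 6 largest each way among genes with opposite responses, up to 4 called genes per list, 6 shared genes and 19 genes of drug action whatever their values. The 24 largest include 6 that fell short of the threshold in some refits lacking 1 array, and these are given by value only, as are others that the rule covers. ATF4, ASNS, CHAC1, TRIB3, XBP1, SLC7A5, SLC3A2, SEL1L, SDF2L1, DNAJC3, HSPA5, DDIT3, ETV4, MARS1, VARS1, MTHFD1L, ALDH1L2, CTH, HBZ, HEMGN, PHLDA1, FOSL2, SLC4A1, CA1, ALAS2, AHSP and the markers of other cell types were chosen after their values were seen. Promoter windows were found for 14237 of 18417 genes (77.3%), too few to compare CpG content between gene sets, so that check is void, as is the CArG box count over the ERK list (22 of 32 genes, 68.8%). Figures were drawn with Python 3.11.15 and matplotlib 3.10.9.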

Additional observations from a re-analysis of the deposited data

Results flagged for a closer look

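The responses of the 2 lines differed, by the test of the difference itself (limma), in 1241 genes. In order of size, with log2 values for the response in KA minus that in KS, the genes described above and called for it were as follows. The difference was 1.81 for EGR1, 1.74 for RUNDC3B, 1.66 for FOS, 1.65 for SNORD14E, 1.60 for EREG, 1.58 for EGF and 1.58 for MIR17HG. It was 1.55 for ATF5, 1.51 for C3AR1, 1.48 for ABCB4, 1.40 for PSAT1, 1.29 for H3C1, 1.20 for H4C2 and 1.20 for SPRY4. Next came 1.15 for SLC7A11, 1.09 for ATP2A3, 1.07 for MUC19, 1.03 for SLC7A5, 1.03 for TRIB3, 1.0 for THBS1, 0.99 for PHGDH and 0.96 for GOT1. It reached 0.94 for CHAC1, 0.94 for ETV4, 0.93 for CARS1, 0.92 for H2AC8, 0.91 for WARS1, 0.91 for SDF2L1 and 0.91 for ATF4. Then came 0.89 for SEL1L, 0.89 for HERPUD1, 0.87 for MTHFD1L, 0.85 for CTH, 0.83 for ALDH1L2, 0.83 for SLC3A2 and 0.81 for MARS1. Smaller positive differences were 0.78 for SAMD9, 0.76 for ETV5, 0.71 for ICAM1, 0.67 for XBP1, 0.67 for HSPA5, 0.65 for ASNS and 0.63 for FOSL1. Among the rest it was 0.61 for STAT5A, 0.60 for DNAJC3, 0.57 for VARS1, 0.50 for CDC20, 0.50 for ITGA2B, 0.49 for NQO2 and 0.43 for DNMT3B.

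Negative differences were led by -2.56 for CRYAB, -1.80 for HPGD, -1.65 for ZC3H6, -1.65 for PSMB9, -1.51 for CD226, -1.49 for FLT1 and -1.49 for LAMB1. Below these stood -1.40 for ARRDC4, -1.37 for TNFSF10, -1.25 for HBD, -1.01 for P4HA1, -1.0 for MYO3B, -0.94 for SOCS1 and -0.94 for BHLHE40. The value was -0.91 for CD22, -0.90 for TUBB1, -0.90 for H4C9, -0.84 for PDK1, -0.76 for SLC22A4, -0.75 for EGLN3 and -0.71 for CPOX. Further negative values were -0.68 for XK, -0.67 for PIM1, -0.65 for PFKFB4, -0.64 for SLC25A37, -0.64 for PHLDA1, -0.62 for CD36 and -0.58 for ELAPOR2. Smaller ones were -0.56 for HEMGN, -0.56 for SLC29A4, -0.53 for HBZ and -0.45 for FOSL2.

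Among the largest differences, 6 depended on single arrays: 2.02 for SNORD20 and 1.70 for SNORA67, small nucleolar RNAs, were lost with 2 arrays and 1 array left out, and -2.06 for PGLYRP4, -1.43 for ACSL5, -1.43 for NXF3 and -1.43 for CRYM with 7, 3, 8 and 3. MIR15B, a microRNA gene at background in both KA groups, had a difference of 1.57. Outside the named genes, 33 of 13837 transcript clusters with several symbols or none were called, 26 positive and 7 negative, which were in no comparison above.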

How the results depend on the processing

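With single arrays left out, the difference was called positive in 364 to 1300 genes and negative in 200 to 749, the response in KA rose in 1133 to 1943 and fell in 479 to 1077, and that in KS rose in 2177 to 2710 and fell in 2331 to 3065. Over the same refits the genes called in KA alone numbered 79 to 211, in KS alone 367 to 1247, in both lines with the same sign 52 to 461, with opposite signs 24 to 63, and in neither 3 to 67. The replicate block across the 4 groups gave 495 positive calls for the difference, and the block within each line 345 positive and 218 negative ones and 548 falls in KA. Since the numbers did not pair the samples (1 of 12 arrays correlated best with one of its own number), these are given only here. Array weights gave 1474 positive and 814 negative calls and 1819 falls in KA, and a trended, robust variance prior 1337 positive calls. Quantile normalization left 15 genes called in neither line, and took the share of positive calls from 68.3% to 53.9%, against 73.0% with arrays centred on their medians. The causes of these shifts were not tested. No called gene covered by the naming rule reversed its sign, while genes not called, such as ABCB1 and RRM2, did without untreated KS replicate 3. Of 109 called genes covered by the naming rule, 74 to 109 kept the call with an array left out, 98 under quantile normalization, 87 and 80 under the blocks, and 105 of the 105 that passed the filter on low values. With 3 arrays per group the precision is limited, and for means at or below 3.39 log2 the size of a change is a lower bound.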

Other observations

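The other gene lists had called shares from 0.0% to 22.2%, beside 6.74% of all genes. Of 27 p53 target genes (22.2% called), 5 were called positive and 1 negative (5 and 2 without untreated KS replicate 3). Of 26 S100 and annexin genes, which bind calcium and membranes, 2 and 3 were called (2 and 4), of 42 cytoskeleton and adhesion genes 3 and 4 (3 and 5), of 26 genes of cholesterol and fatty acid synthesis 2 and 3 (3 and 3), and of 23 BCR-ABL and STAT5 signalling genes 2 and 3 (2 and 4). Of 29 myeloid genes, 0 and 2 were called (0 and 5), and 9 rose in KS against 1 in KA. Of 25 imprinted genes 2 and 2 were called (2 and 4), and of 32 MAGE, SSX and related tumour antigens 0 and 2 (1 and 4), among which near-identical relatives are uncertain.

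Of 22 genes of H3K9 methylation and corepressors, 3 were called positive and 0 negative (4 and 0), and of 23 genes that sense double-stranded RNA or DNA 3 and 0 (3 and 1). Among 23 genes of the DNA methylation machinery it was 1 and 0 (3 and 0), among 21 of anthracycline action 2 and 0 (1 and 1), among 15 drug efflux transporters 1 and 0 (1 and 1), and among 27 of decitabine uptake and deoxynucleotide metabolism 0 and 1 (2 and 1). Replication (40 genes) and DNA repair (30 genes) had 2 and 0 each (2 and 1, 2 and 0), antioxidant defence (33 genes) 1 and 0 (3 and 1), erythroid and megakaryocyte transcription factors (25 genes) 2 and 0 (2 and 0), antigen presentation (19 genes) 1 and 1 (2 and 3), the TNF superfamily (30 genes) 1 and 1 (1 and 2) and complement (24 genes) 1 and 1 (1 and 3). Of 173 microRNA genes, a list formed after the values had been seen, 4 and 1 were called (9 and 2). None of 18 BCL2 family genes and none of 25 HOX genes was called by limma with all arrays (1 and 0 without untreated KS replicate 3).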
